A study of Mus musculus with 18 samples.

Results

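The late maturation of wild-type (WT) mouse retina was measured between postnatal day 7 (P7) and the adult. The comparison used 6 of the 18 arrays analysed here, the 3 adult WT arrays (AD WT1 to AD WT3) and the 3 P7 WT arrays, chosen by age and genotype alone. All 18 arrays held total RNA of isolated retinas from a colony of mice carrying a knockout (KO) of Plk3, a polo-like kinase gene. The colony was partly of Black Swiss origin, with the Rd1 allele of Pde6b that causes retinal degeneration, and Plk3 heterozygotes were bred to C57Bl/6 until the litters no longer carried Rd1. The WT animals were littermates of the Plk3-KO animals and received no treatment, and the labels call the older group adult without giving an age. The 3 WT arrays of newborn retina (P0) are given as the earlier level, and the 3 adult and 3 P7 Plk3-KO arrays as a second set of arrays at the same ages. The study calls its replicates biological, but the labels do not tie the 3 arrays of a group to separate animals. The p-values measure the spread between arrays of a group, pooled over the 6 groups of all 18 arrays. The spread of the P0 and Plk3-KO arrays therefore enters each p-value and SE of the WT comparison.

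The retina of the newborn mouse still holds dividing progenitor cells, which make rods, bipolar cells and Müller glia last. In the weeks after division ends, rods and cones grow the outer segments that hold the phototransduction cascade, photoreceptors and bipolar cells form ribbon synapses, the eyes open and Müller glia take up their roles in water, potassium and glutamate handling. Immature neurons meanwhile give up the cytoskeletal and growth genes of migrating and axon-forming cells.

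Each value is a log2 signal of the authors' MAS5 processing, and each difference is the adult mean minus the P7 mean in log2 units. A probe set was tested where its mean was above 7 at either age, and called where its adjusted p in limma (Benjamini-Hochberg over 22251 probe sets) was below 0.05. Of these probe sets, 2232 were called higher in the adult, 10% of those tested, and 2179 were called lower, 9.79%. A gene above 7 at 1 age only passed this filter through that age and had to differ, so that the counts and medians of the lists below describe the genes tested and are no evidence on those that were not. The median difference over all probe sets tested was −0.03. A difference over 1, a doubling of signal, was reached by 1483 of those called higher and 1320 of those called lower, and a difference over 3 by 129 and 130. The adult and P7 arrays did not overlap for 31.6% of the probe sets tested. At 3 arrays a group the smallest p of a two-sided exact permutation test is 0.1, and none was run on single genes.

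AD WT3 stood apart from the other adult arrays. Over the probe sets tested, AD WT1 and AD WT2 correlated at r = 0.963 with each other, while AD WT3 correlated at 0.860 and 0.880 with them and at 0.879, 0.876 and 0.826 with the 3 P7 arrays. Over the 4145 probe sets called lower without AD WT3 and P7 WT3, AD WT3 had covered a median of 27.0% of the distance from P7 to adult, against 61.8% over the 2244 called higher. P7 WT3 had covered 25% and 0% of it, so that AD WT3 and P7 WT3 lay close together on the probe sets called lower, with median signals of 8.9 and 8.8. The arrays also split by signal level across the ages. AD WT1, AD WT2 and P7 WT3 each had a median of 6.4, with 42.6%, 43.4% and 42.1% of probe sets above 7. AD WT3 had a median of 7.0 and P7 WT1 and P7 WT2 of 6.9, with 49.6%, 48.1% and 48.0% above 7. The part of this split in the places of AD WT3 and P7 WT3 was not tested. P7 WT3 also stood apart in correlation, at r = 0.926 and 0.904 with the other P7 arrays, and its 3′ minus 5′ difference of the actin control probe sets, 1.6, was that of the adult arrays (1.6 to 1.8) and not of the other P7 arrays (0.80 and 1.0). With this actin difference as a covariate, 3464 probe sets were called higher and 2392 lower, and 153 of the 174 genes named here and called kept their call. Without AD WT3, 2595 probe sets were called higher (11.7%) and 3785 lower (17%), and 4029 of the 4411 calls (91.3%) were kept. In a whole retina, fewer cells of a type and less RNA per cell cannot be told apart.

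Most genes of the rod phototransduction cascade were called higher in the adult. Of the 11 on the array, all of which were tested, 8 were called higher and 0 lower, with a median difference of 1.40, and without AD WT3 the counts were the same. Gnat1 encodes the rod transducin alpha subunit, which carries the signal from the visual pigment. It read 16.5, 16 and 15.5 on the adult arrays and 11.4, 12.5 and 10.2 on the P7 arrays. All adult arrays lay above all P7 arrays, and the P0 arrays lay lower still, at 4.2 to 5.9. The difference was 4.63 (SE 0.553, 24.8-fold, adjusted p = 4e-05). Slc24a1, the sodium/calcium exchanger of the rod outer segment, rose by 4.23 (18.8-fold, adjusted p = 1.17e-05), and Pde6a, a catalytic subunit of the rod phosphodiesterase, rose by 3.43 (adjusted p = 0.000229), with all 3 adult arrays at 11.9. Gnb1, the transducin beta subunit, rose by 1.47 and Pde6g, the inhibitory phosphodiesterase subunit, by 1.40. Pde6b, the other catalytic subunit, was at 15.23 ± 0.40 (SD, n = 3) in the adult and 14.23 ± 0.45 at P7, and did not pass (adjusted p = 0.149). Its P0 mean was 9.17.

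Of the genes that switch the light response off and restore the pigment, 14 were on the array and 13 were tested, of which 10 were called higher and 0 lower, with a median of 1.53. The same 10 and 0 were counted without AD WT3. The pair of guanylate cyclase activators, which restart cyclic GMP synthesis as calcium falls, stood first. Guca1b read 15.1, 14.7 and 14.3 in the adult, 9.2, 9.5 and 8.8 at P7 and 5.4 to 5.8 at P0. Guca1a read 15.4, 15 and 14.5 in the adult, 11.1, 11.3 and 11.8 at P7 and 6.7 to 8.3 at P0. In both genes the 3 ages did not overlap. Guca1b rose by 5.53 (SE 0.285, 46.3-fold, adjusted p = 1.6e-08) and Guca1a by 3.57 (SE 0.435, 11.8-fold, adjusted p = 4.83e-05). Abca4, the transporter that clears retinal from outer segment discs, rose by 2.27, and Rbp3, the retinoid carrier of the space around the outer segments, by 1.47. Sag, the rod arrestin that caps the activated pigment, rose by 1.03 (adjusted p = 0.0323), but did not pass without AD WT1 (0.75), AD WT2, P7 WT1 or P7 WT2. Pdc, phosducin, differed by 0.77 and did not pass (adjusted p = 0.0843).

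Of the cone genes, 7 were called higher, both cone opsins among them. The array held 13, of which 12 were tested, 0 were called lower and the median was 1.18, with the same counts without AD WT3. Opn1mw, the middle-wave opsin, read 12.2, 12.7 and 12.4 in the adult, 7.8, 7.9 and 6.8 at P7 and 2.9 to 4.2 at P0. Opn1sw, the short-wave opsin, read 14.3, 14.3 and 13.6 in the adult, 12.7, 12.7 and 12.4 at P7 and 11.6 to 12.3 at P0. The ages were well separated in Opn1mw and closer together in Opn1sw. The rise was 4.93 for Opn1mw (SE 0.445, 30.6-fold, adjusted p = 3.58e-06) and 1.47 for Opn1sw (SE 0.286, 2.76-fold, adjusted p = 0.00228). The difference between the rises was not tested, and the probe sets cannot be compared in level. Gnat2, cone transducin alpha, rose by 2.0, and Kcne2, a potassium channel subunit, by 2.17. Pde6h, the inhibitory subunit of the cone phosphodiesterase, rose by 2.93 (adjusted p = 0.0413) with P7 WT3 at 8.0 against 11.5 and 11.3 on the other P7 arrays, and without that array it did not pass (1.80, adjusted p = 0.17), nor without AD WT1 or AD WT2. Gnb3, the cone transducin beta subunit, had a difference of 0.00.

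Outer segment structure and photoreceptor transcription factors split into genes that rose, genes near their adult signal and a few that fell. Of 18 outer segment and axoneme genes tested, all those on the array, 6 were called higher and 2 lower, with a median of 0.43. Prph2, the tetraspanin of the disc rim, read 12.8, 12.8 and 12.7 in the adult, 9.5, 9.2 and 10.3 at P7 and 2.9 to 6.8 at P0, a rise of 3.10 (adjusted p = 0.0353). It did not pass without AD WT1, AD WT2, P7 WT1 or P7 WT2 (2.87 to 3.08, adjusted p = 0.0872 to 0.0957). Fscn2, an actin-bundling protein of photoreceptors, rose by 3.20 and Reep6, an endoplasmic reticulum protein of rods, by 2.67. The 2 genes called lower were the ciliary genes Rpgr (−2.47) and Nphp4 (−0.90). Rpgr read 6.3, 7.1 and 9.5 in the adult and 9.9, 9.8 and 10.6 at P7, with AD WT3 nearest to P7, and without that array its difference was −3.40, while it did not pass without AD WT1, AD WT2 or P7 WT3 (−2.22 to −1.80). Without AD WT3 the counts of the list were 6 and 3.

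Among 15 genes tested of the photoreceptor transcription factor list, again all those on the array, 5 were called higher and 2 lower, and the median was 0.10. Crx, the homeobox factor of both photoreceptor types, had adult signals of 13.87 ± 0.21, 13.77 ± 0.47 at P7 and 11.87 ± 0.25 at P0 (n = 3 each). Its adult and P7 arrays overlapped, and the difference of 0.10 did not pass (adjusted p = 0.827). Nrl, the factor that sets rod identity, differed by 0.67 (adjusted p = 0.152). Mef2c, a MADS-box factor, read 11.0, 11.1 and 10.9 in the adult and 7.9, 8.0 and 4.9 at P7, and Esrrb, an orphan nuclear receptor of rods, read 12.1, 12 and 11.9 against 8.8, 9.2 and 7.5. P7 WT3 was the lowest array for both. Mef2c was at least 10.3-fold higher (adjusted p = 0.000281), a bound for which values under 7 were raised to 7 on each array, and Esrrb rose by 3.50 (adjusted p = 2.1e-05). An adjusted p beside a bound belongs to the values as read, and the bounds themselves were not tested. Prdm1, a repressor of the bipolar fate in young photoreceptors, read 8.2, 8.2 and 9.1 in the adult and 11.6, 11.4 and 12.2 at P7, close to the P0 readings of 11.6 to 12.1. It fell by 3.23 (9.40-fold, adjusted p = 5.56e-07). Ankrd33 and Nr1d1 rose by 1.43 and 1.97, and for Nr1d1 the limit on time of day given below for clock genes also holds. Aipl1, which the list counts but which is a chaperone and not a transcription factor, rose by 1.63. The other factor called lower was Otx2 (−0.73, adjusted p = 0.0224), which acts upstream of Crx.

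**Figure D1:**
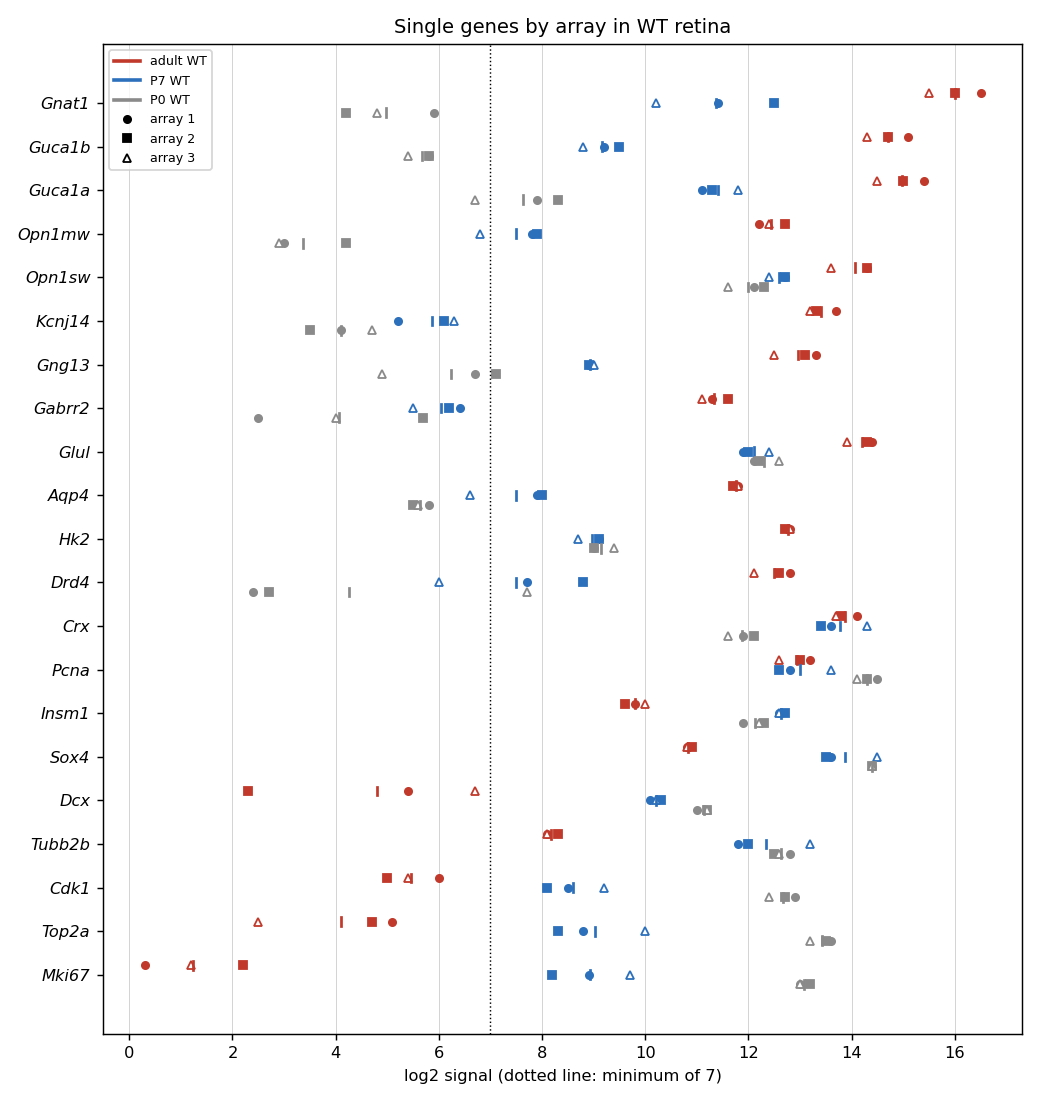
Log2 signal (horizontal axis) of 21 genes on the 9 WT arrays, adult in red, P7 in blue and P0 in grey, with circles, squares and open triangles for arrays 1, 2 and 3 and a short bar for each mean. The adult arrays lie to the right of P7 from Gnat1 to Drd4, on top of P7 for Crx and Pcna, and to the left of P7 from Insm1 to Mki67. Readings left of the dotted line at 7 have no firm size.

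The starts of photoreceptor genes can be read for letters that fit known binding motifs, here to show what the members share beside their signal. The windows came from RefSeq on build GRCm38.p6, and 41 of the 56 genes of the rod, shutoff, cone and outer segment lists on the array had a window, 55 windows in all. The CRX letters TAATCC, on either strand, were in 27.3% of these windows, in 7.06% of all 32851 windows and in 5.79% of the 12156 windows of genes tested. The NRL letters TGCTGA were in 18.2%, 19.5% and 15.4%. The 3 stretches printed are the 120 bases before the start of genes that rose, picked because they hold the CRX letters, which are in capitals and run in the reversed sense on the strand shown.
Guca1a, chr17:47400607-47400726, minus strand: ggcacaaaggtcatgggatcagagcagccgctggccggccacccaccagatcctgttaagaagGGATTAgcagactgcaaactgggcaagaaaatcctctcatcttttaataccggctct
Abca4, chr3:122044340-122044459, plus strand: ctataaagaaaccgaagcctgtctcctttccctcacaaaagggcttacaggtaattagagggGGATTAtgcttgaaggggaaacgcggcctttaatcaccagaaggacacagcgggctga
Rbp3, chr14:33953883-33954002, plus strand: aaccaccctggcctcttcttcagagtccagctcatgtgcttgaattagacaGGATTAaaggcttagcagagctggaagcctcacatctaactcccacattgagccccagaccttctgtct
The letters lie 57, 58 and 69 bases before the start of Guca1a, Abca4 and Rbp3. A match is a description of the sequence, and no binding was measured.

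Genes of the photoreceptor ribbon synapse, at which vesicles are released without pause in the dark, were called higher more often than lower. All 20 on the array were tested, 11 were called higher and 2 lower, and the median was 1.02. Kcnj14, an inward rectifier potassium channel, had the largest difference of the list. It read 13.7, 13.3 and 13.2 in the adult, 5.2, 6.1 and 6.3 at P7 and 3.5 to 4.7 at P0. P7 and P0 were below the minimum of 7, so that the gene was at least 84.5-fold higher in the adult (adjusted p = 2.26e-08). Slc17a7, the vesicular glutamate transporter, and Cabp4, a calcium sensor of the presynaptic calcium channel, both rose by 2.60 (adjusted p = 0.00692 and 0.00012), and Cplx4, a complexin of ribbon terminals, rose by 2.53 (adjusted p = 7.86e-06). Ctbp2, whose locus also gives the ribbon protein RIBEYE, differed by −0.23 and did not pass. The pair called lower were Erc2 (−0.73), an active zone protein, and Dag1 (−0.53), dystroglycan, the latter on 1 of its 4 probe sets tested. Without AD WT3 10 were called higher and 4 lower.

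Bipolar cells carry the photoreceptor signal to the inner retina, and 11 of their genes were called higher. Of 22 on the array 19 were tested, 0 were called lower, and the median was 1.27. Gng13, a G-protein gamma subunit of ON bipolar cells, read 13.3, 13.1 and 12.5 in the adult, 8.9, 8.9 and 9.0 at P7 and 4.9 to 7.1 at P0. The ages did not overlap, and the rise was 4.03 (SE 0.505, 16.4-fold, adjusted p = 6.03e-05). Car8, a carbonic anhydrase-related protein, read 11.7, 11.9 and 11.7 against 9.2, 9.4 and 7.4, and Sebox, a homeobox factor, 11.2, 11.3 and 11.0 against 8.7, 8.9 and 7.9. P7 WT3 was the lowest array for both. Car8 rose by 3.10 (adjusted p = 0.000322) and Sebox by 2.67 (adjusted p = 5.3e-06). Pcp2, a regulator of G-protein signalling in rod bipolar cells, rose by 1.93. Without AD WT3 10 genes were called higher and 0 lower.

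Genes of the other inner neurons moved less as lists. Of 24 amacrine genes on the array 21 were tested, with 5 called higher and 1 lower, median 0.67. Vip, a neuropeptide, read 10.1, 10.7 and 10.3 in the adult and 6.9, 7.9 and 6.9 at P7, a rise of 3.13 (adjusted p = 0.00441). Gad1, which makes GABA, rose by 1.60, Calb2, calretinin, by 0.93 and Penk, an enkephalin precursor, by 1.73. Th, which makes the dopamine precursor, was at 7.60 ± 0.36 in the adult and 5.73 ± 0.35 at P7, at least 1.52-fold higher (adjusted p = 0.00432). Npy, another neuropeptide, was the amacrine gene called lower. It read 10.6, 10.7 and 10.2 in the adult, 11.7, 11.8 and 12.7 at P7 and 10 to 10.2 at P0, and fell by 1.57 (adjusted p = 0.000415). Its adult and P0 readings overlapped. Without AD WT3, 6 amacrine genes were called higher and 1 lower.

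Of 7 horizontal cell genes tested, of 8 on the array, 2 were called higher and 2 lower. Calb1, calbindin, rose by 2.60 (adjusted p = 1.37e-05) and Septin4, a septin, by 0.60, while Ndrg1, a stress-responsive protein, read 12.5, 12.3 and 11.8 against 13.5, 13.2 and 14.8 (−1.63, adjusted p = 0.006). Calb1 was called on 1 of its 3 probe sets tested. Onecut2, a transcription factor of early-born retinal cells, was at 5.30 ± 1.55 in the adult and 7.50 ± 0.46 at P7, at least 1.41-fold lower (adjusted p = 0.0237). Of 16 ganglion cell genes tested, of 18 on the array, 3 rose, Nefh (1.67), a neurofilament, Chrna6 (1.5), a nicotinic receptor subunit, and Thy1 (1.43), a surface glycoprotein, and 3 fell, the transcription factors Pou4f1 (−1.5) and Satb1 (−1.07) and the adhesion protein Jam2 (−0.77). The ganglion cell median was 0.05, beside −0.03 over all probe sets tested. Without AD WT3 the horizontal and ganglion cell counts were the same.

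Müller glia, the radial glia of the retina, had members moving both ways. All 25 on the array were tested, 10 were called higher and 5 lower, and the median was 0.63. Aqp4, the water channel of the endfeet, read 11.8, 11.7 and 11.8 in the adult, 7.9, 8.0 and 6.6 at P7 and 5.5 to 5.8 at P0. Glul, glutamine synthetase, which clears transmitter glutamate, read 14.4, 14.3 and 13.9 in the adult, 11.9, 12 and 12.4 at P7 and 12.1 to 12.6 at P0. For Aqp4 the P7 and P0 readings did not overlap, while those of Glul did. The rises to the adult were 4.27 for Aqp4 (SE 0.422, 19.2-fold, adjusted p = 7.86e-06) and 2.10 for Glul (SE 0.197, 4.29-fold, adjusted p = 5.21e-06). Clu, the secreted chaperone clusterin, rose by 3.33, Abca8a, a lipid transporter, by 2.73, and Kcnj10, the potassium channel that buffers neuronal activity, by 1.80. The 5 called lower were Col9a1 (−2.07), a collagen, Crym (−1.63), a thyroid hormone-binding protein, Ptn (−1.10), a growth factor, Nrarp (−1.0), a feedback inhibitor of Notch, and Slc1a3 (−0.87), a glutamate transporter that progenitors also express. Slc1a3 was called on 1 of its 4 probe sets tested, which can cross-hybridise, and did not pass without AD WT1, AD WT2, P7 WT2 or P7 WT3. Without AD WT3 12 were called higher and 4 lower, and Ptn was the named gene that did not pass (adjusted p = 0.0677).

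Of 26 mitosis genes on the array, 17 were tested, and 13 of these were called lower and 0 higher, with a median of −1.97. Of the 13, 12 had adult means below 7 and were tested through their P7 signal alone, so that the count and the median describe these genes and give no measure of the list. Of the 3 genes above 7 at both ages, 1 was called lower. Mki67, the proliferation marker, read 0.30, 2.2 and 1.2 in the adult, 8.9, 8.2 and 9.7 at P7 and 13.0 to 13.2 at P0. Top2a, the topoisomerase that untangles replicated chromosomes, read 5.1, 4.7 and 2.5 in the adult, 8.8, 8.3 and 10 at P7 and 13.2 to 13.6 at P0. P7 lay between P0 and the adult in both, P7 WT3 was the highest P7 array, and all adult readings were below 7. Mki67 was therefore at least 3.82-fold lower in the adult (adjusted p = 8.92e-08) and Top2a at least 4.09-fold (adjusted p = 3.14e-05). Here too each adjusted p belongs to the values as read and not to the bound. Cdk1, the kinase of mitotic entry, was at least 3.03-fold lower (adjusted p = 3.46e-05), with an adult mean of 5.47 and a P7 mean of 8.60. Cdc20, the activator of mitotic exit, stayed above the minimum at 7.23 ± 0.12 in the adult and 8.70 ± 0.61 at P7, and fell by 1.47 (adjusted p = 0.00125). Bub1b, a spindle checkpoint kinase, read 9.3, 9.1 and 8.3 in the adult and 7.0, 7.0 and 8.5 at P7, and its difference of 1.40 did not pass (adjusted p = 0.0833). Without AD WT3 it did (1.70, adjusted p = 0.0475), so that 1 gene was called higher and 15 lower.

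Of 27 replication genes on the array 22 were tested, 7 were called lower and 0 higher, with a median of −0.63, and without AD WT3 9 were lower and 1 higher. Of the 7, 4 had adult means below 7. Rrm2, a subunit of the enzyme that makes deoxynucleotides, was at 2.93 ± 2.50 in the adult and 8.57 ± 0.60 at P7 and was at least 2.96-fold lower, on a probe set that can cross-hybridise. Mcm7, of the replicative helicase, read 9.9, 10 and 9.8 against 11.3, 10.9 and 12.3, and fell by 1.60 (adjusted p = 0.00124). Pcna, the replication clamp, which also serves DNA repair, had adult signals of 12.93 ± 0.31, 13.00 ± 0.53 at P7 and 14.30 ± 0.20 at P0, and did not pass (−0.07, adjusted p = 0.898). The retinal progenitor list had 20 genes on the array and 18 tested, with 8 called lower, 0 higher and a median of −0.57, and 9 and 0 without AD WT3. Insm1, a zinc-finger factor of cells leaving the cycle, read 9.8, 9.6 and 10 in the adult, 12.6, 12.7 and 12.6 at P7 and 11.9 to 12.3 at P0. Its P7 arrays were the highest of the 3 ages, and it fell by 2.83 to the adult (7.13-fold, adjusted p = 3.89e-06). Notch1, the receptor that keeps progenitors cycling, fell by 1.77 (adjusted p = 0.000715).

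Letters of a different kind mark the starts of the cell cycle genes. Of the 53 genes of the mitosis and replication lists on the array 45 had a window, 51 windows in all. The CHR letters TTTGAA, on either strand, were in 41.2% of these windows, in 17.9% of all windows and in 11.2% of those of genes tested, and the CCAAT letters in 70.6%, 37.4% and 37.6%. The CHR element is known from genes repressed outside late cell cycle phases, and CCAAT is the NF-Y motif. In the photoreceptor windows the shares were 12.7% and 47.3%. The CRX letters were in 0% of the cell cycle windows, and the E2F letters GGCGGGAA in 9.8%, against 2.19% of all windows and 3.74% of those of genes tested. The 3 stretches printed are the 120 bases before the start of genes that fell, picked because they hold both kinds of letters. Capitals mark both kinds of letters, read on either strand.
Cdk1, chr10:69352913-69353032, minus strand: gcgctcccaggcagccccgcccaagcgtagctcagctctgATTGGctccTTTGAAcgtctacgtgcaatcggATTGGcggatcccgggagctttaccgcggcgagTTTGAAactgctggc
Top2a, chr11:99024190-99024309, minus strand: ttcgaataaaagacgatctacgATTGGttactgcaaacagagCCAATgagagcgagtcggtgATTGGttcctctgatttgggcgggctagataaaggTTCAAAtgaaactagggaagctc
Cdc20, chr4:118437344-118437463, minus strand: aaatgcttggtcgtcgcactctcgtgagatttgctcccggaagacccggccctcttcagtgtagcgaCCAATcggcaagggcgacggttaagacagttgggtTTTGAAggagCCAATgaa
The CHR letters nearest to the start lie 15 bases before it in Cdk1, 23 in Top2a and 18 in Cdc20.

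Of the genes of immature neurons, 13 fell. All 26 on the array were tested, 0 were called higher, the counts were the same without AD WT3, and the median was −0.93. Tubb2b, a tubulin of migrating neurons, read 8.1, 8.3 and 8.1 in the adult, 11.8, 12 and 13.2 at P7 and 12.5 to 12.8 at P0. Sox4, a transcription factor of new neurons, read 10.8, 10.9 and 10.8 in the adult, 13.6, 13.5 and 14.5 at P7 and 14.4 on each P0 array. In both, the P7 and P0 arrays overlapped and the adult arrays lay below them. Tubb2b fell by 4.17 (SE 0.383, 18-fold, adjusted p = 4.2e-06) and Sox4 fell by 3.03 (SE 0.227, 8.19-fold, adjusted p = 5.09e-07). Dcx, the microtubule protein doublecortin, read 5.4, 2.3 and 6.7 in the adult and 10.1, 10.3 and 10.2 at P7, at least 9.19-fold lower (adjusted p = 0.000329). Nnat, neuronatin, fell by 3.33 (10.1-fold). Gap43, a protein of growth cones, fell by 1.5, and Cd24a, a surface protein of young neurons, fell by 2.37.

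Of the axon guidance genes, 8 fell. The array held 27, of which 24 were tested and 0 were called higher, with a median of −0.60, and without AD WT3 10 were lower. Epha5, an ephrin receptor, read 8.7, 8.6 and 9.7 in the adult and 11.3, 11.3 and 10.5 at P7 (−2.03, adjusted p = 0.000156), and Nrp1, a semaphorin coreceptor, read 7.7, 8.0 and 8.8 against 10.4, 10 and 9.7 (−1.87, adjusted p = 0.000993). AD WT3 was the adult array nearest to P7 for both, and P7 WT3 the P7 array nearest to the adult. The semaphorin receptor Plxna2 (−1.70), its ligand family member Sema6a (−1.77) and the ephrin Efnb2 (−1.20) were also called lower.

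Genes of the synaptic vesicle cycle, which most retinal neurons share, were in part called higher. All 20 on the array were tested, 8 were called higher and 1 lower, the median was 0.95, and 9 and 1 were called without AD WT3. Vamp1, a vesicle SNARE, rose by 2.63 (adjusted p = 3.89e-06), Snap25, its partner on the plasma membrane, by 1.0, Dnm1, the dynamin of vesicle retrieval, by 1.43, and Slc12a5, the chloride exporter that makes GABA inhibitory, by 1.20. Stx1a, a syntaxin of conventional synapses, was the one called lower (−1.20, adjusted p = 0.0025). Transmitter receptors changed in few members. Of 15 GABA and glycine receptor genes tested, of 18 on the array, 3 were called higher and 1 lower, with a median of 0.33, and of 15 glutamate receptor genes tested, also of 18, 2 were higher and 1 lower, with a median of −0.23. Gabrr2, a GABA receptor subunit of bipolar cells, read 11.3, 11.6 and 11.1 in the adult and 6.4, 6.2 and 5.5 at P7, at least 20.2-fold higher (adjusted p = 0.000108). Gabra4, another GABA receptor subunit, rose by 1.73, Gabrd was at least 2.64-fold higher, and the glycine receptor subunit Glra2 was called lower (−1.0). Of the glutamate receptors, Grm8 (1.37) and Grin2d (1.20) rose and Grik3 was at least 2.25-fold lower. Without AD WT3, the counts were 3 and 1 for the first list and 2 and 2 for the second. Of the 3 GABA and glycine receptor genes called higher, 2 had P7 means below 7, and Grik3 had an adult mean below 7. Each of these was tested through 1 age alone.

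**Figure D2:**
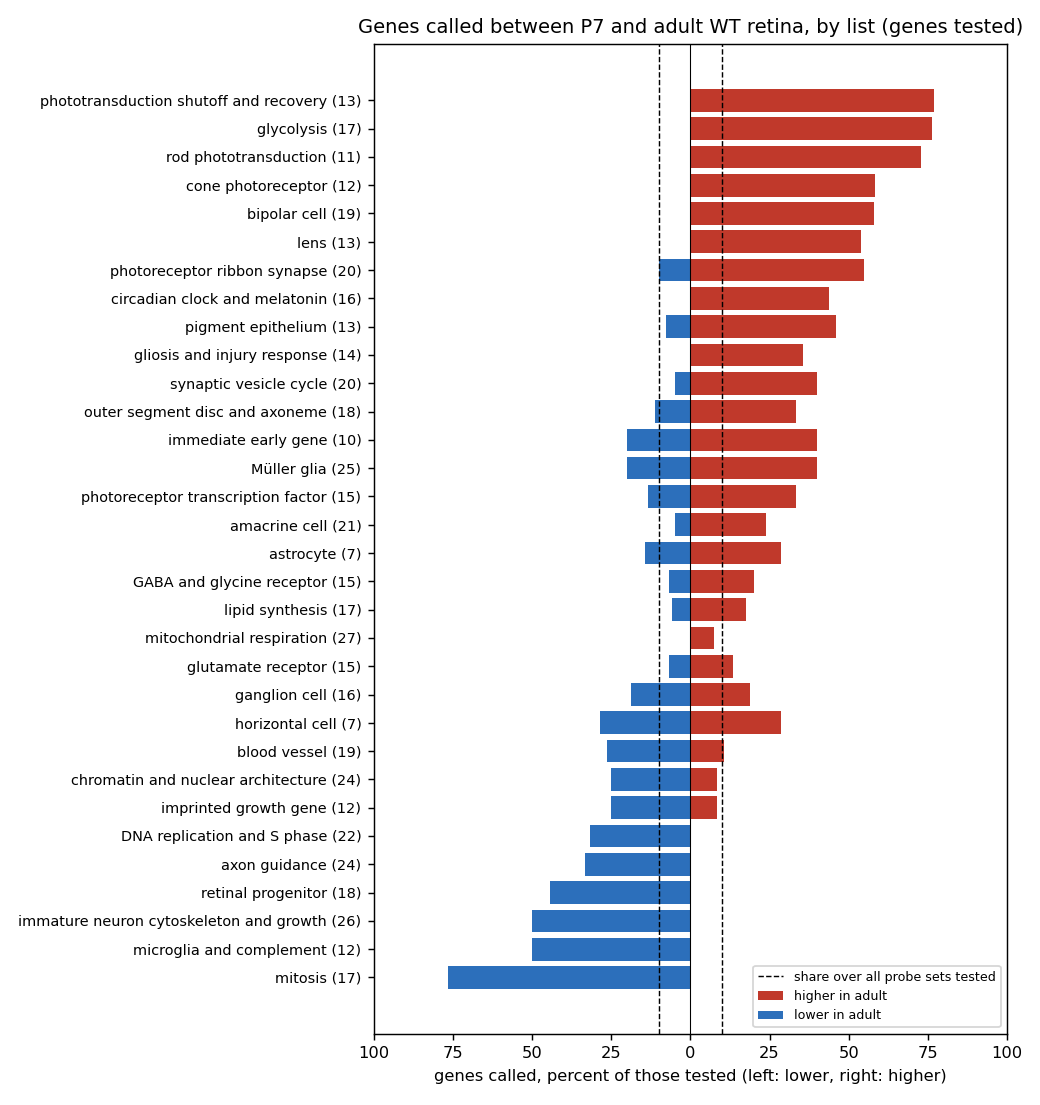
Share of the tested genes of each list (with the number tested in parentheses) called higher in adult than in P7 WT retina (red, to the right) and called lower (blue, to the left), for lists of 7 or more tested genes. Dashed lines mark the shares over all probe sets tested, 10% and 9.79%. Shutoff, glycolysis and rod genes lead to the right, and mitosis, immature neuron and microglia genes to the left. Of the 13 mitosis genes called lower, 12 were tested through their P7 signal alone, and all 7 lens genes called higher through their adult signal alone. These 2 bars give no measure of their lists.

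Glycolysis and respiration are the main sources of energy in the retina, whose photoreceptors are known for making lactate in the presence of oxygen. All 17 glycolysis genes on the array were tested, 13 were called higher and 0 lower, with or without AD WT3, and the median was 1.23. Of 27 mitochondrial respiration genes, all tested, 2 were called higher and 0 lower, with a median of 0.13. Hk2, the hexokinase that commits glucose, read 12.8, 12.7 and 12.8 in the adult, 9.1, 9.1 and 8.7 at P7 and 9.0 to 9.4 at P0. P7 and P0 overlapped, and the rise to the adult was 3.80 (SE 0.187, 13.9-fold, adjusted p = 1.55e-08). Slc16a1, a lactate transporter, rose by 2.40 (adjusted p = 3.17e-05), as did Aldoc, an aldolase that astrocytes and Müller glia also express (adjusted p = 0.000281). Aldoa, the other aldolase on the list, rose by 1.27 and Pkm, pyruvate kinase, by 1.0. Ldha, a lactate dehydrogenase subunit, differed by 0.40 and did not pass (adjusted p = 0.386), while Ldhb, the other subunit, rose by 0.97 (adjusted p = 0.00496). The respiration genes called higher were Uqcrc1 (0.87, adjusted p = 0.0278), of complex III, and Cox7a1, a complex IV subunit at least 1.55-fold higher (adjusted p = 0.021), and neither passed without AD WT1, AD WT2, P7 WT1 or P7 WT2. Without AD WT3, 2 respiration genes were called higher and 1 lower. As a list mean over its genes, respiration read 13.11, 12.98 and 12.61 in the adult and 12.64, 12.46 and 13.17 at P7, with P7 WT3 the highest array of all, whereas glycolysis read 13.39, 13.33 and 12.92 against 11.80, 11.79 and 11.94, without overlap.

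**Figure D3:**
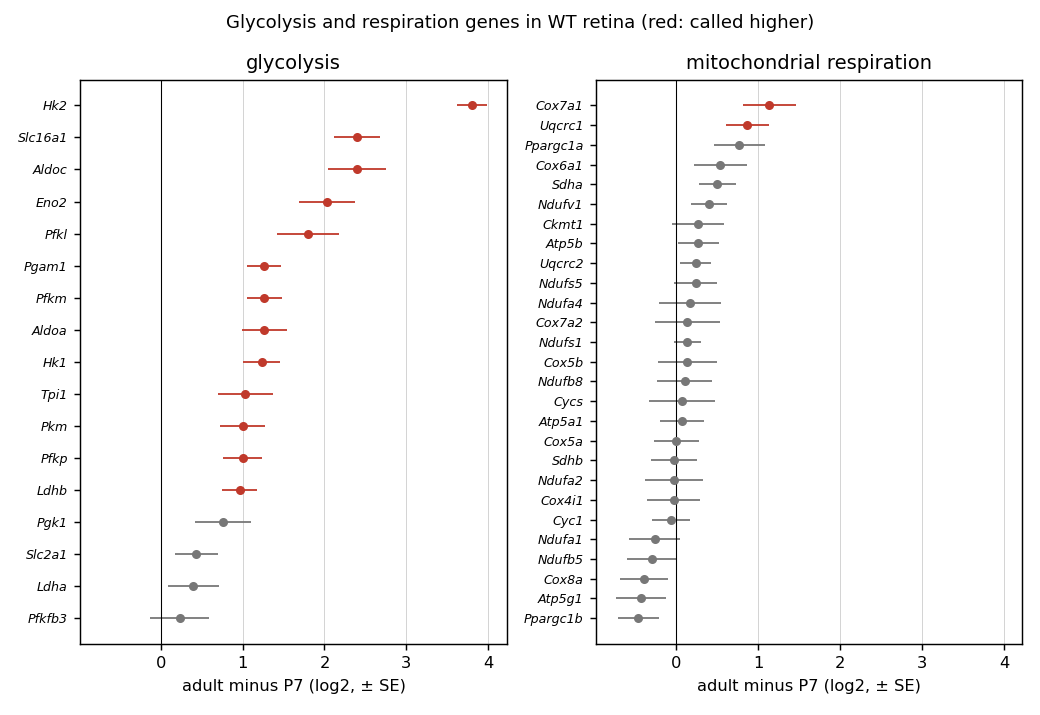
Adult minus P7 difference in WT retina (log2, with bars of ± 1 standard error) for each tested gene of the glycolysis list (left) and the mitochondrial respiration list (right), with genes called higher in red and the others in grey. In glycolysis 13 of 17 genes are red, up to Hk2 at 3.80, and in respiration 2 of 27.

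The list of circadian clock and melatonin genes also held the dopamine receptors. Of 19 on the array 16 were tested, 7 were called higher, 0 lower, and the median was 0.83. Drd4, the dopamine receptor of photoreceptors, read 12.8, 12.6 and 12.1 in the adult and 7.7, 8.8 and 6.0 at P7, a rise of 5.0 (SE 1.06, adjusted p = 0.00394). The clock output factors of the PAR bZIP family rose together, Dbp by 2.80, Hlf by 2.73 and Tef by 1.10, as did the repressor Nr1d2 by 0.73. The core clock genes Arntl (−0.30) and Cry1 (0.00) did not pass. The hour of dissection is not given in the labels, so that time of day and age cannot be told apart for this list. The same holds for Nr1d1, a relative of Nr1d2 that was counted above with the photoreceptor transcription factors. Without AD WT3, 7 were called higher and 1 lower. Of 10 immediate early genes tested, of 16 on the array, 4 were called higher and 2 lower, with or without AD WT3, Fos (1.97), Atf3, Nr4a1 and Dusp1 above and Jun (−1.37) and Btg2 (−1.5) below.

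All 24 chromatin genes on the array were tested, 2 were called higher and 6 lower, with a median of −0.57, and without AD WT3 2 and 9. Ezh2, the methyltransferase of Polycomb, read 8.5, 8.1 and 8.9 in the adult, 11.2, 10.9 and 11.4 at P7 and 12.6 to 12.8 at P0, and fell by 2.67 (adjusted p = 7.86e-06). Tet1, which oxidises methylated cytosine, read 7.0, 7.3 and 9.1 in the adult and 9.9, 10.1 and 9.8 at P7, with AD WT3 nearest to P7, and fell by 2.13 (adjusted p = 0.00205). Without AD WT3 its difference was −2.78. Hmgb3, a chromatin architectural protein, fell by 1.67. The histone deacetylase Hdac9 (1.03) and the methyl-CpG binding protein Mbd2 (0.73) rose. Of 12 imprinted growth genes tested, of 16 on the array, Impact, a translation regulator of neurons, rose by 2.17 and Igf2, a growth factor, Plagl1, a zinc-finger factor, and Mest fell (−1.77, −0.87 and −0.57), and without AD WT3 2 were higher and 5 lower. Of 17 lipid synthesis genes tested, all on the array, Scd1, a fatty acid desaturase (2.20), Fdft1, of sterol synthesis (1.27), and Agpat3, which makes phosphatidic acid (1.20), rose and Elovl2, a fatty acid elongase, fell (−0.97), with the same counts without AD WT3.

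Plk3 itself was not tested, since its probe set was at 5.20 ± 1.13 in the adult and 6.10 ± 0.17 at P7, below 7 at both ages. Of the other polo-like kinases, Plk5, which is known from brain and lacks kinase activity, read 11.5, 11.0 and 10.5 in the adult, 8.5, 9.1 and 7.8 at P7 and 4.2 to 7.1 at P0. The adult arrays lay above the P7 arrays, and the rise was 2.53 (adjusted p = 0.0155), which did not pass without AD WT1 (2.28) or P7 WT3 (2.20). Plk4, which duplicates centrioles, read 7.3, 7.4 and 7.9 in the adult, 9.1, 8.2 and 8.8 at P7 and 11.5 to 11.6 at P0, and fell by 1.17 (adjusted p = 0.00249). Plk2 (0.17) and Plk1 (−0.47) did not pass.

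Markers of tissues around the neural retina also differed, and their part in the results above was not tested. Of 13 lens genes tested, of 15 on the array, 7 were called higher and 0 lower, with or without AD WT3, and the median was 5.67. All 7 had P7 means below 7 and were tested through their adult signal alone. Of the 13, 2 were above 7 at both ages, and 0 of these were called. The count describes the genes tested, and the median has no firm size. Cryaa, alpha A crystallin, read 12.1, 13.5 and 11.1 in the adult, 3.3, 6.8 and 2.7 at P7 and 11.9, 4.8 and 14.6 at P0. The P0 arrays spanned the whole range, and the rise to the adult was at least 37.6-fold (adjusted p = 0.0148), but did not pass without AD WT2, P7 WT1 or P7 WT3 (adjusted p = 0.0511 to 0.0631). The mean over the list followed the same order, at 9.15 to 11.88 in the adult, 4.91 to 5.87 at P7 and 4.53 to 13.91 at P0. Crystallin genes of the gamma family are near copies, so that Crygd and Crygb may share signal.

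Of 15 pigment epithelium and visual cycle genes on the array 13 were tested, 6 were called higher and 1, the channel gene Trpm3 (−1.27), lower, with or without AD WT3. The visual cycle genes rose, Rpe65, the retinoid isomerase, by 2.97 (adjusted p = 0.00613), the opsin relative Rgr by 2.63 (adjusted p = 0.00142) and the retinol dehydrogenase Rdh5 by 2.10, and Lrat, which makes retinyl esters, was at least 3.03-fold higher. Among the genes of pigment synthesis and its granules, Tyr (0.07) and Pmel (−1.37) did not pass. Tyr read 8.4, 9.6 and 7.9 in the adult and 8.4, 9.0 and 8.3 at P7, so that the ages overlapped. The list mean was 9.09 to 10.15 in the adult and 8.55 to 8.94 at P7.

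The counts of immune and vessel genes depended on AD WT3. Of 12 microglia and complement genes tested, of 15 on the array, 6 were called lower and 0 higher, with a median of −1.07, but 2 lower without AD WT3. Of the 6, 2 had adult means below 7 and were tested through their P7 signal alone. Tyrobp, an adaptor of myeloid receptors, read 7.6, 8.7 and 7.9 in the adult and 9.7 on each P7 array, and fell by 1.63 (adjusted p = 0.00324). The complement gene C1qb fell by 1.47 (adjusted p = 0.0123), and C1qc (−1.80, adjusted p = 0.028) did not pass without AD WT3 (−1.17, adjusted p = 0.0911), nor without AD WT1, P7 WT1 or P7 WT2. Of 19 vessel genes tested, of 24 on the array, 5 were called lower and 2 higher, and 9 and 2 without AD WT3. Col4a1, a basement membrane collagen, read 7.9, 8.6 and 9.9 in the adult and 11.7, 11.8 and 10.9 at P7 (−2.67, adjusted p = 0.00631), and Rgs5, of pericytes, fell by 1.73 (adjusted p = 0.0429), a call kept without AD WT3 and lost without any other of the 6 arrays (−1.85 to −1.33, adjusted p = 0.0664 to 0.186). The others called lower were Col4a2 (−1.83), Angpt2 (−0.77) and Mfsd2a, which was at least 2.83-fold lower. The transporter gene Slco1c1 (2.33) and the VEGF receptor gene Flt1 (1.30) rose. Of 7 astrocyte genes tested, Aldoc and Aldh1l1, a folate enzyme, were called higher and Pdgfra, the receptor of astrocyte precursors, lower. Pdgfra read 8.0, 8.7 and 9.0 in the adult, 11.3, 11.3 and 11.1 at P7 and 8.8 to 9.2 at P0, so that P7 was highest, and fell by 2.67 (adjusted p = 8.6e-05). The red blood cell list had 5 genes on the array and 1 tested, Alas2, which did not pass (−1.43).

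Of 14 gliosis and injury genes tested, of 18 on the array, 5 were called higher and 0 lower, with or without AD WT3. Mt1, a metallothionein, read 12.7, 13.1 and 11.9 in the adult and 9.6, 9.8 and 9.5 at P7, a rise of 2.93 (adjusted p = 0.00183). Mt2 and Cebpd were called as well. Serpina3n, a protease inhibitor, and Edn2, an endothelin, were at least 1.12-fold and 1.91-fold higher, with P7 means of 3.0 and 3.80. These 2 were tested through their adult signal alone, and of the 11 genes above 7 at both ages 3 were called higher.

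**Figure D4:**
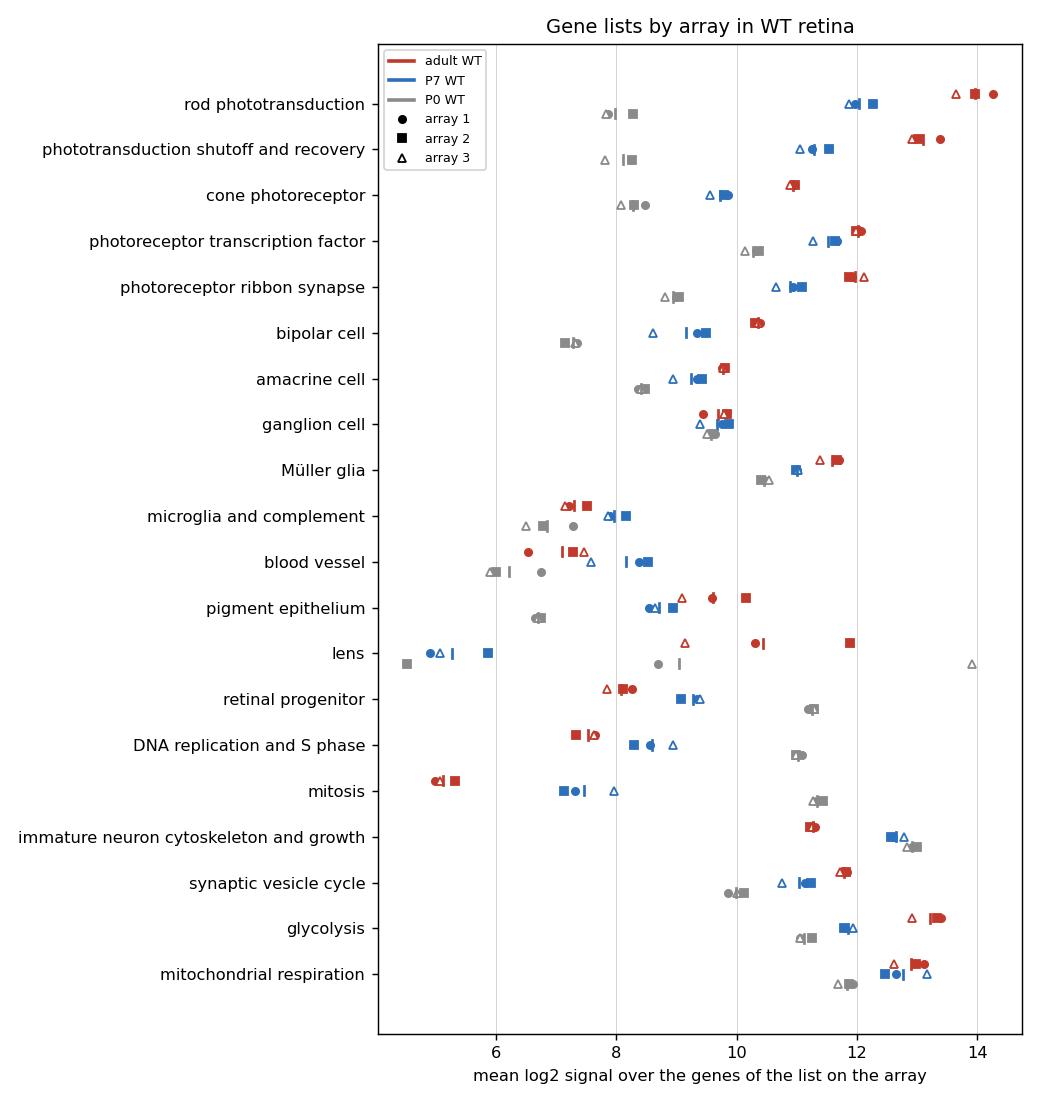
Mean log2 signal (horizontal axis) over the genes on the array of 20 lists, for each of the 3 adult (red), 3 P7 (blue) and 3 P0 (grey) WT arrays, with circles, squares and open triangles for arrays 1, 2 and 3. Glycolysis and rod genes separate adult from P7 to the right and mitosis genes to the left, ganglion cell genes overlap at all ages, and the lens list spreads from 4.53 to 13.91 at P0.

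The largest differences outside the lens and the lists came mostly from genes at low signal at 1 age. Glb1l3, a galactosidase relative, read 10.2, 10.2 and 9.2 in the adult and 3.7, 0.1 and 4.4 at P7, at least 7.29-fold higher (adjusted p = 8.53e-05). Sh2d1a, an adaptor known from lymphocytes, was at least 8.38-fold higher, with an adult mean of 10.07 and a P7 mean of 3.17, and Traf3ip3 at least 5.53-fold, with means of 9.47 and 3.70. Pdzph1, named for its PDZ domain, was at least 26.6-fold higher, at 11.73 ± 0.49 in the adult and 6.37 ± 0.32 at P7. Among the falls, Aplnr, the apelin receptor of sprouting vessels, read 1.2, 1.3 and 5.9 in the adult, 11.4, 11.4 and 10.9 at P7 and 4.5 to 7.0 at P0. It was at least 18.8-fold lower in the adult than at P7 (adjusted p = 0.000233), and P7 was the highest of the 3 ages. Pax7, a paired-box factor, was at least 6.06-fold lower (means 1.73 and 9.60), and Slc6a2, the noradrenaline transporter, and Cd93, an endothelial receptor, were each at least 4.70-fold lower. Fabp7, a fatty acid-binding protein of radial glia, stayed above 7 throughout. It read 8.0, 8.0 and 8.1 in the adult, 12.9, 12.5 and 14.7 at P7 and 13.2 to 13.9 at P0, and fell by 5.33 (SE 0.481, 40.3-fold, adjusted p = 3.58e-06).

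The Plk3-KO differences between the same ages share no array with the WT differences. Both comparisons, however, took their variance from the same fit, and the probe sets tested were chosen by their WT means. In Plk3-KO, 9.08% of these probe sets were called higher in the adult and 10.1% lower. Leaving out WT arrays alone moved the 4273 Plk3-KO calls, to 3924 without P7 WT1 and to 5481 without AD WT3 and P7 WT3. The calls in WT and Plk3-KO are therefore not independent, and the shares called in both give no separate test. Of the 4411 WT calls, 99.5% had the same direction in Plk3-KO, 66.5% were also called there and 0 were called the opposite way, and the shared calls were 68.7% of those in Plk3-KO. The differences between WT and Plk3-KO maturation were tested as an interaction, which called 0 probe sets (272 of 22251 with an unadjusted p under 0.05). With 3 arrays a group this test can miss differences, so that the 0 does not show that the genotypes matured alike. Gnat1 differed between the ages by 4.63 in WT and 5.53 in Plk3-KO, Guca1b by 5.53 and 5.97, Hk2 by 3.80 and 4.37, Kcnj14 by 7.53 and 7.50, Mki67 by −7.70 and −5.97 and Tubb2b by −4.17 and −4.60. The WT means of Kcnj14 at P7 and of Mki67 in the adult were below 7, so that the differences of these genes have no firm size. By list, 8 rod genes and 13 glycolysis genes were called higher in each genotype. In each, 13 mitosis genes were called lower. Of those in WT, 12 were tested through their P7 signal alone, so that these counts give no measure of the list. Bipolar genes were 11 higher and 0 lower in WT and 8 and 1 in Plk3-KO, and vessel genes 2 and 5 in WT and 0 and 11 in Plk3-KO. The lens list had 7 calls in WT and 0 in Plk3-KO, with medians of 5.67 and 4.50 that have no firm size.

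**Figure D5:**
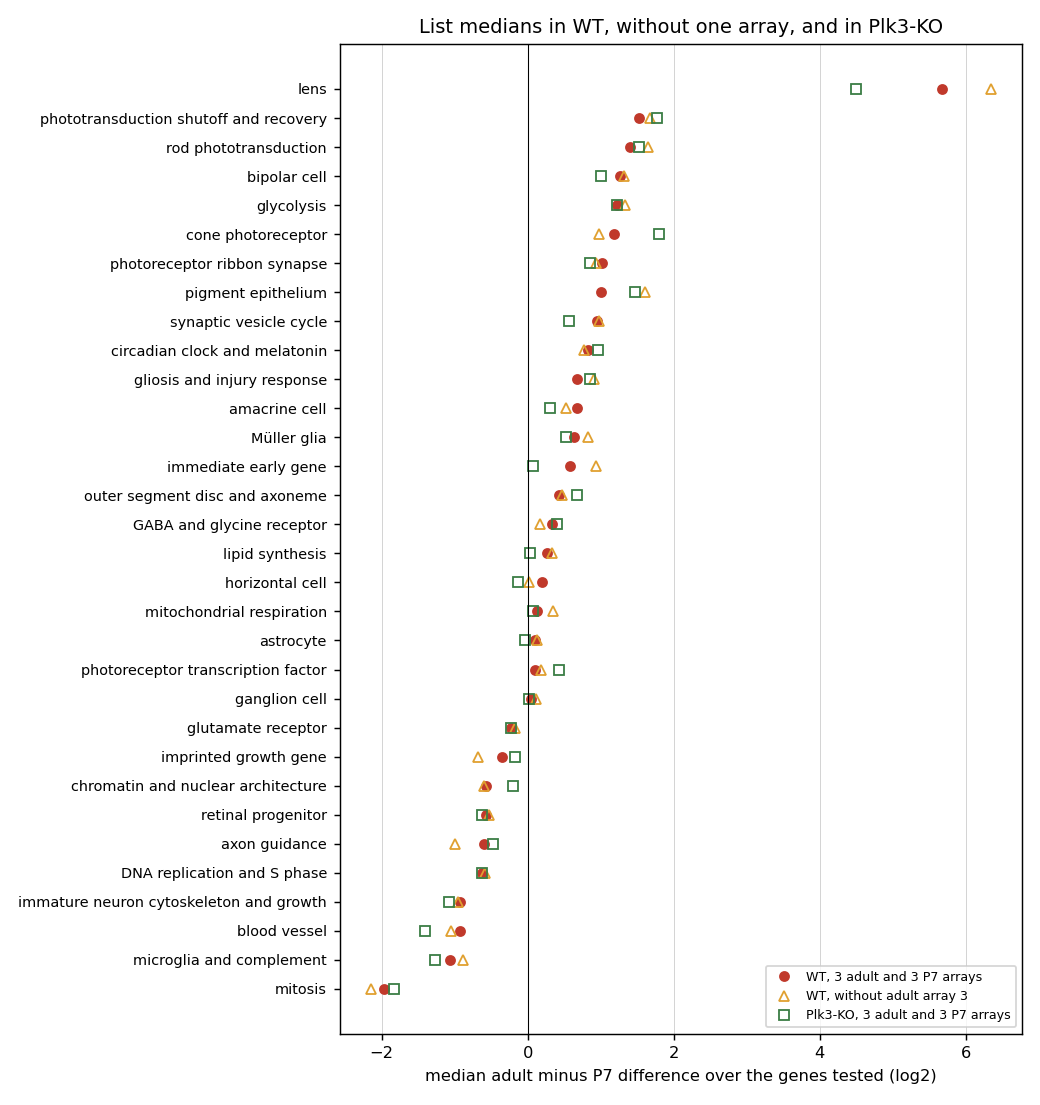
Median adult minus P7 difference (log2) over the tested genes of each list of 7 or more tested genes, in WT retina (filled circles), in WT retina without AD WT3 (open triangles) and in Plk3-KO retina (open squares). The 3 symbols lie close together for rod (1.40, 1.65 and 1.53), glycolysis (1.23, 1.33 and 1.23) and mitosis genes (−1.97, −2.15 and −1.83) and farther apart for lens genes (5.67, 6.35 and 4.50). The mitosis and lens medians rest mostly on genes with a WT mean below 7 at 1 age and have no firm size.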

How the data were processed

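Retinal RNA was hybridised to Affymetrix whole-genome mouse arrays. The values are the authors' deposited log2 MAS5 signals, background-adjusted and scaled by the authors with the affy package, given with 1 decimal, and no normalization was added. Of 45101 probe sets 64 controls were left out. Gene symbols come from the platform annotation, with 34945 probe sets holding 1 symbol, 932 several and 9160 none, and 34741 were matched by gene ID to RefSeq. A gene of a list is given by its probe set with the highest mean over the 18 arrays, so that other probe sets of it may differ. Several genes named were called on only 1 of 2 or 3 probe sets tested, among them Calb1, C1qb, Flt1, Gad1, Notch1, Slc6a2 and Stx1a.

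In R 4.3.3 with limma 3.58.1, a model with 1 mean for each of the 6 groups of age and genotype was fitted to all 18 arrays (12 residual and 4.05 prior degrees of freedom, variance trend). Values under 7, the study's minimum, have no firm size, and where a group mean was below it, folds are bounds computed with each array of that group raised to 7. The adjusted p printed beside a bound comes from the fit to the unraised values, and the bound was not tested. The number of arrays limits the precision.

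The members, gene lists and naming rule were chosen with earlier results of these data known. Genes named are the 15 largest rises and 15 largest falls that did not overlap and were called with and without AD WT3, the 3 highest means and 3 largest differences of each list, and genes the study names for its arrays. Outside that rule, Aipl1, Angpt2, Ankrd33, Arntl, C1qb, Cd24a, Cdk1, Cebpd, Col4a2, Col9a1, Cplx4, Cry1, Crym, Dag1, Dusp1, Elovl2, Erc2, Flt1, Gap43, Glra2, Hdac9, Jam2, Jun, Kcnj10, Ldhb, Mbd2, Mest, Mfsd2a, Mt2, Nphp4, Npy, Nr1d1, Nr4a1, Otx2, Pkm, Plagl1, Pmel, Ptn, Rbp3, Rdh5, Rpgr, Satb1, Slc1a3, Slco1c1, Sox4, Stx1a, Trpm3, Tyr and Tyrobp were chosen after their values were seen. Lists were given no set test. Alternatives changed the arrays, the normalization, the filter, the floor, the variance trend and the test, and a covariate for the actin 3′ minus 5′ difference was added after the data were seen. Motif letters were searched in RefSeq windows around gene starts, and genes without a window were left out.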

Additional observations from a re-analysis of the deposited data

How the results depend on the processing

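Of the 4411 probe sets called (2232 higher and 2179 lower), 2150 were called on the 6 WT arrays alone (1242 and 908), 687 by the methods' t-test after Benjamini-Hochberg adjustment (421 and 266), and 217 with a replicate block on the 6 WT arrays (163 and 54). Equal numbers do not pair adult with P7 arrays, whose deviations correlated at −0.286, −0.094 and −0.325. Between unequal numbers the correlations ran from −0.245 (AD WT2 with P7 WT1) to 0.352 (AD WT3 with P7 WT1). The actin covariate gave 3464 higher and 2392 lower. Leaving out 1 WT array gave 2424 to 6380 calls, 1278 to 2595 higher and 1146 to 3785 lower. Single arrays moved a count by over 1.5 times in the case of AD WT1 (2424 calls, 1278 and 1146), AD WT2 (2526 calls, 1317 and 1209), AD WT3 (3785 lower) and P7 WT1 (1398 lower), and leaving out AD WT3 and P7 WT3 gave 4145 lower. Centring the arrays on their medians moved the share of calls that were higher from 50.6% to 54.6%. Without AD WT3 and adult Plk3-KO array 3 the interaction called 1 probe set, of Fzd2 (−3.32, adjusted p = 0.0448).

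Of 174 genes named and called, 129 kept the call whichever 1 WT array was left out, and 0 changed sign in any setting. Without AD WT1 135 kept it, without AD WT2 136, without AD WT3 172, without P7 WT1 146, without P7 WT2 154 and without P7 WT3 149. With the replicate block 48 kept it, 51 under the adjusted t-test and 153 with the actin covariate. The genes named as largest rises and falls had been required to be called without AD WT3 and not to overlap between the ages. Their calls without AD WT3 were thus fixed by the choice, and the 172 is no test of them. Where the arrays of the ages did not overlap, leaving out an array cannot change the sign, so the 0 is no test of those genes in these settings. The adjusted p of the lost calls ran from 0.0543 to 0.197 without AD WT1, 0.056 to 0.176 without AD WT2, 0.0677 to 0.0911 without AD WT3, 0.0509 to 0.165 without P7 WT1, 0.0536 to 0.139 without P7 WT2 and 0.0519 to 0.17 without P7 WT3. The genes that lost it, with an array left out, were Angpt2, Atf3, C1qc, Cd93, Cebpd, Col9a1, Cox7a1, Cryaa, Cryba1, Cryba4, Crygb, Crygd, Crygs, Dag1, Dusp1, Elovl2, Erc2, Flt1, Glra2, Grin2d, Grm8, Mbd2, Mest, Mt2, Nphp4, Onecut2, Otx2, Pde6g, Pde6h, Penk, Pkm, Plagl1, Plk5, Prph2, Ptn, Rgs5, Rmst, Rpgr, Sag, Satb1, Septin4, Slc1a3, Slco1c1, Trpm3 and Uqcrc1. Genes that were not called changed sign in some settings. Crx was at −0.076 with quantile normalization, −0.12 with the actin covariate and −0.083 to 0.37 over arrays left out, and Nrl at −0.080 with quantile normalization. Pcna was at 0.40 without AD WT3 and P7 WT3 and −0.27 to 0.23 over arrays left out, Plk2 at −0.033 to 0.42 over arrays left out, and Tyr at −0.027 with the actin covariate and −0.42 to 0.43 over arrays left out. The causes were not tested. Of 34 list medians, the 23 beyond 0.5 kept their sign under all 19 alternatives, and 7 of the others changed it.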

Other observations

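Further genes with large differences were at low signal at 1 age. Crybb2, Crygs, Cryba1, Crygb and Cryba4, all lens crystallins, were among the 15 largest rises, with P7 means below 7. Folh1, a folate hydrolase, was at least 1.55-fold higher in the adult (means 7.63 and 0.37) and Bst1, an ADP-ribosyl cyclase, at least 1.38-fold (means 7.47 and −0.27). Rag1, the recombinase gene of lymphocytes, was at least 1.70-fold lower in the adult than at P7 (means 0.17 and 7.77), with a P0 mean of 8.13. Slc27a2, a fatty acid transporter, was at least 4.49-fold lower (means 4.33 and 9.17) and Arhgap31, a regulator of small GTPases, at least 3.10-fold lower, with AD WT3 at 7.0 against 1.9 and 1.0 on the other adult arrays. The long noncoding RNA Rmst was at least 2.96-fold lower, with AD WT3 at 7.1 against 1.1 and 3.3. Med8, a Mediator subunit gene on chromosome 4, like Plk3, fell by 0.70 (adjusted p = 0.00558).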
